A study of Caenorhabditis elegans with 3 samples.

Results

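The 9 genes described here encode enzymes of the methionine cycle and of phosphatidylcholine synthesis in the nematode Caenorhabditis elegans: metr-1, mtrr-1, mthf-1, mel-32, sams-1, ahcy-1, cbs-1, pmt-1 and pmt-2. They were chosen by name, with earlier results of these data known. Every probe set annotated with 1 of these symbols alone was taken. This gave 11 probe sets of 22625 on the array, and 9 genes of 17118 with a probe set of their own. The RNA came from whole N2 (Bristol) worms labelled as L1 larvae, from a synchronous culture made by bleaching parents kept at 20 °C on Escherichia coli OP50. One group was passed through a steel needle under voltage (from a supply rated to 30 kV, the setting not used here; bio-electrospray, a way of jetting living material as droplets), one was held at 30 °C for 24 h as a heat shock, and one was the untreated control. Each group was 1 Affymetrix array, so nothing below has a replicate check, no p-value is given, and differences are described by size only. The time between treatment and extraction was not used here.

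The methionine cycle makes S-adenosylmethionine (SAM), the methyl donor of the cell, and rebuilds methionine from the homocysteine left after methylation. The folate enzymes MEL-32 and MTHF-1 prepare the methyl group, methionine synthase METR-1 passes it to homocysteine with vitamin B12 as cofactor, and MTRR-1 keeps that cofactor reduced. SAMS-1 turns methionine into SAM, AHCY-1 splits the spent product into homocysteine and adenosine, and CBS-1 takes homocysteine out of the cycle towards cysteine. In the worm a large share of SAM goes to phosphatidylcholine, because PMT-1 and PMT-2 methylate phosphoethanolamine to phosphocholine, a route shared with plants and not used by mammals. Worms with little SAM or phosphatidylcholine are known for activation of the lipid regulator SBP-1 and for fat storage.

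All 9 genes stood above the median of every array (medians of 3.16 for bio-electrospray, 3.19 for heat shock and 3.15 for control), so none of them passed the level filter through a single array. Levels are log2 values from GCRMA, a method that corrects background from probe sequence and scales the arrays to each other, and the level of a gene is that of its brightest probe set. Probe sets differ in how well they bind, so levels are compared between arrays and not between genes. As a view of technical spread, genes read by more than 1 probe set past the level filter (above the median of either array compared) were used. The differences of their 2 brightest probe sets disagreed by a median of 0.09 and, in 95% of 1947 genes, by less than 0.34 (log2) for bio-electrospray minus control, and by 0.24 and 0.84 over 2024 genes for heat shock minus control. This spread leaves out differences between cultures. For 18 probe sets of spiked-in control RNA, not worm RNA, the median difference from control was −0.19 for bio-electrospray and −0.53 for heat shock. On the heat shock array all 18 were below control, by differences from −1.07 to −0.15. The values below were not corrected for this, and several of the heat shock differences were smaller in size than that median.

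Of the genes that remake methionine, metr-1 and mthf-1 were more than 2-fold higher after heat shock, and mtrr-1 and mel-32 stayed near control. The methionine synthase gene metr-1 had a log2 level of 6.66 in sprayed larvae and 7.66 in heat-shocked larvae, against 6.44 in untreated larvae. The methylenetetrahydrofolate reductase gene mthf-1, whose product supplies the methyl group that METR-1 transfers, stood at 7.63 in sprayed larvae and 8.87 in heat-shocked larvae, against 7.52 in untreated larvae. For both genes the heat shock array was the high one, and the bio-electrospray and control arrays lay close together. The heat shock level was 2.34-fold above control for metr-1 (log2 difference 1.23) and 2.55-fold above it for mthf-1 (1.35). Both differences were larger than the disagreement between probe sets in 95% of genes, while 546 of 9010 genes (6.06%) were higher after heat shock by at least as much as metr-1 and 454 (5.04%) by at least as much as mthf-1. Each rests on 1 probe set, and the name of the mthf-1 probe set marks it as possibly shared between transcripts.

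The methionine synthase reductase gene mtrr-1 had levels of 6.93 in sprayed larvae and 6.63 in heat-shocked larvae, against 6.68 in untreated larvae. The serine hydroxymethyltransferase gene mel-32, which moves a one-carbon unit from serine to folate, stood at 9.31 in sprayed larvae and 9.02 in heat-shocked larvae, against 9.20 in untreated larvae. In both genes the bio-electrospray array was highest and the heat shock array lowest. Their differences from control after heat shock, −0.05 for mtrr-1 and −0.17 for mel-32, lay within the disagreement between probe sets. The name of the mel-32 probe set marks it as possibly shared between transcripts.

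The SAM synthetase gene sams-1 differed little between arrays. Its brightest probe set read 10.67 in sprayed larvae and 10.57 in heat-shocked larvae, against 10.64 in untreated larvae. A second read 8.54 in sprayed larvae and 8.36 in heat-shocked larvae, against 8.49 in untreated larvae, and the third, marked as possibly shared, read 8.36 in sprayed larvae and 7.96 in heat-shocked larvae, against 8.45 in untreated larvae. The heat shock array was lowest in all 3 probe sets, by differences from control of −0.08, −0.13 and −0.49. After bio-electrospray the differences from control were 0.03, 0.05 and −0.09, so the direction was not shared by the 3 probe sets. By the distance between the 3 levels after centring each gene on its own mean, the genes most like sams-1 were srlf-1 (distance 0.0020), F31D4.5 (0.0022) and lin-12 (0.0024). A flat pattern of this kind was common, since 2522 of 9071 genes lay within 0.1 of sams-1 over the 3 arrays.

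The S-adenosylhomocysteine hydrolase gene ahcy-1, whose product removes the inhibitor that methylation leaves behind, had levels of 11.37 in sprayed larvae and 11.03 in heat-shocked larvae, against 11.16 in untreated larvae. Its order was the same as that of mtrr-1 and mel-32, with the heat shock array lowest. The differences from control were 0.21 after bio-electrospray and −0.13 after heat shock.

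The phosphoethanolamine methyltransferase genes did not share a pattern. The gene pmt-2, for the later methylation steps, stood at 10.78 in sprayed larvae and 10.58 in heat-shocked larvae, against 10.63 in untreated larvae. The gene pmt-1, for the first methylation, stood at 9.23 in sprayed larvae and 9.65 in heat-shocked larvae, against 9.28 in untreated larvae. Its probe set is marked by name as possibly shared between transcripts. For pmt-1 the heat shock array was highest and for pmt-2 it was lowest. The heat shock differences from control, 0.37 for pmt-1 and −0.05 for pmt-2, were both within the disagreement between probe sets, and 2232 of 9010 genes (24.8%) were higher by at least as much as pmt-1.

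The cystathionine beta-synthase gene cbs-1 was the member with lower levels on both treated arrays. It stood at 5.34 in sprayed larvae and 5.15 in heat-shocked larvae, against 5.93 in untreated larvae. The control array was the high one, and the treated arrays differed from each other by 0.19. The log2 difference from control was −0.59 after bio-electrospray, a level 1.51-fold lower, and −0.79 after heat shock, 1.72-fold lower. Both comparisons use the same control array, so they are not independent. Among all genes, 47 of 8613 (0.546%) were lower by at least as much after bio-electrospray, and 1023 of 9010 (11.4%) after heat shock. The gene has 1 probe set. With 16 added to the linear levels, its difference after bio-electrospray was −0.45.

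**Figure D1:**
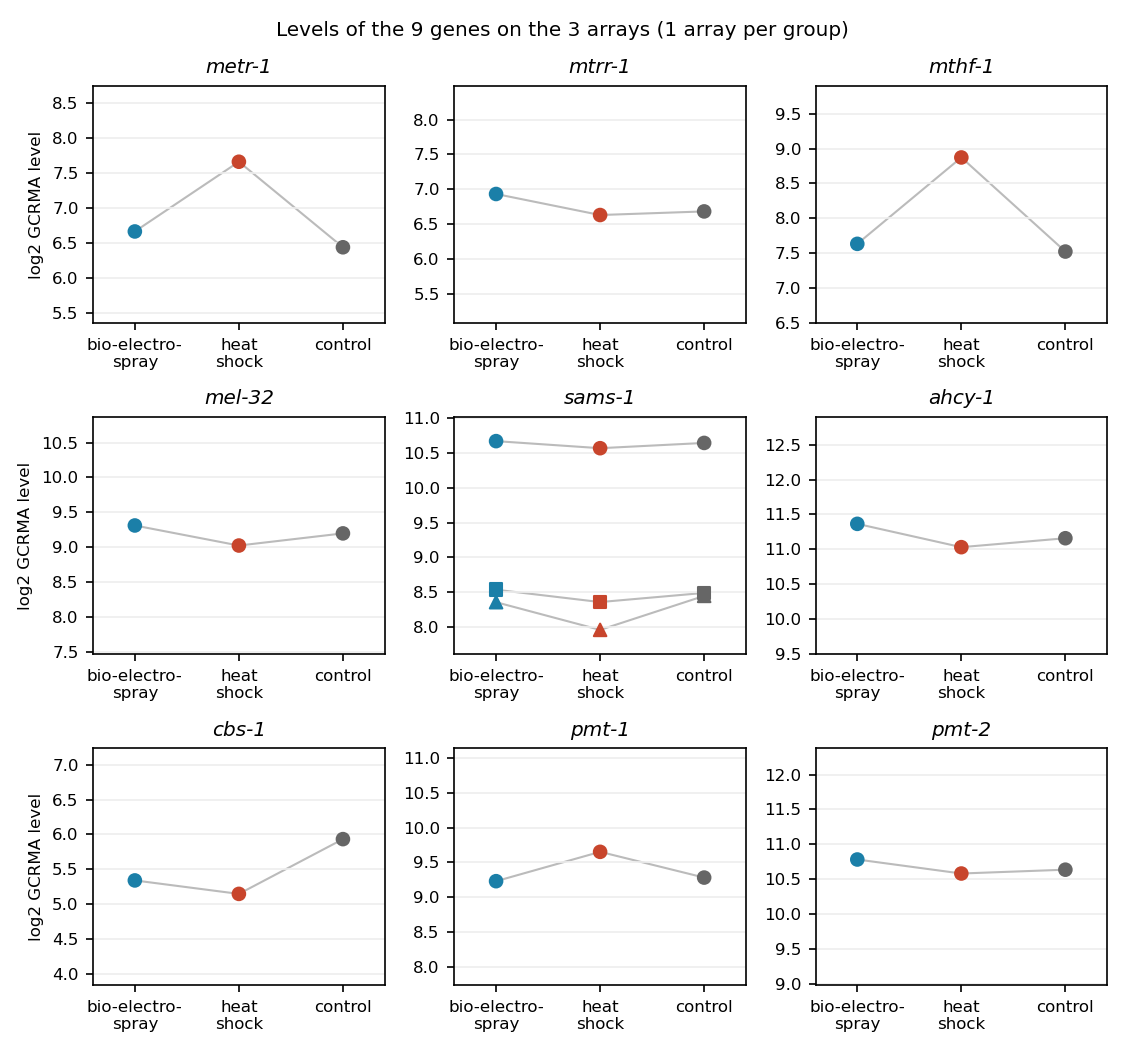
Log2 GCRMA level (vertical axis, of equal span in every panel) of each of the 9 genes on the bio-electrospray, heat shock and control arrays (horizontal axis). Each point is 1 probe set on 1 array, with no error bars because each group is 1 array; circles are the brightest probe set of a gene, squares and triangles the further ones of sams-1, and grey lines join 1 probe set. The heat shock point is the high one for metr-1 (7.66) and mthf-1 (8.87), and the control point is the high one for cbs-1 (5.93).

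Set side by side after bio-electrospray, none of the 9 genes was at least 2-fold apart from control, where 0.302% of 8613 genes were (26 genes). Their differences ran from −0.59 for cbs-1 to 0.25 for mtrr-1. The median over the 9 genes was 0.11, beside 0 over all genes tested, of which 2472 had exactly equal levels on both arrays. In absolute size the median difference was 0.15 over the 9 genes and 0.04 over all genes, where the genes of exactly equal level lower the median. Absolute sizes were not compared among genes of like brightness. Levels were above control in 7 of the 9 genes: mtrr-1 (0.25), metr-1 (0.23), ahcy-1 (0.21), pmt-2 (0.15), mel-32 (0.11), mthf-1 (0.11) and sams-1 (0.03). The share of all genes above control was 34.2%, and 34.4% of the 3699 genes whose probe set was at least as bright as that of cbs-1, the dimmest of the 9. Only cbs-1 differed by more than the disagreement between probe sets in 95% of genes. The largest positive difference, that of mtrr-1, was matched or passed by 349 of 8613 genes (4.05%).

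After heat shock 2 of the 9 genes were at least 2-fold higher, metr-1 and mthf-1, where 8.90% of 9010 genes were, and 0 of 9 were at least 2-fold lower, where 8.24% were. The median over the 9 genes was −0.05, beside 0 over all genes tested, of which 1315 had exactly equal levels on both arrays. Whether such equal levels, listed for some genes below, reflect a measured lack of difference was not tested. The absolute difference had a median of 0.17 over the 9 genes and 0.31 over all genes. Between metr-1 and mthf-1 on one side and cbs-1 on the other, the remaining 6 genes lay between −0.17 (mel-32) and 0.37 (pmt-1).

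Set directly against bio-electrospray, heat shock gave 2 of 9 genes at least 2-fold higher, where 8.80% of 9024 genes were, and 0 at least 2-fold lower, where 7.73% were. The difference was 1.24 for mthf-1 and 1.0001 for metr-1, which lies at the 2-fold limit itself and was under it after quantile normalization, median centring or the offset of 16 (0.90 at the lowest). The other differences lay between −0.33 (ahcy-1) and 0.42 (pmt-1), and cbs-1 was at −0.19. In 6 of the 9 genes the heat shock array was below the bio-electrospray array, where 41.8% of all genes tested were.

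**Figure D2:**
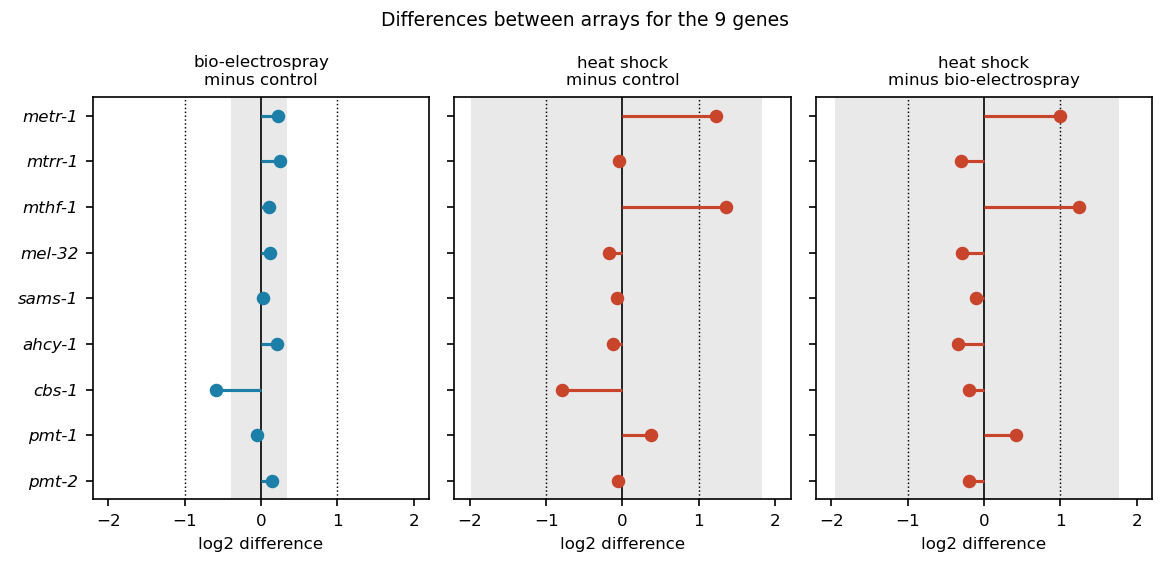
Log2 difference (horizontal axis) of the 9 genes for bio-electrospray minus control, heat shock minus control and heat shock minus bio-electrospray. Each point is the difference between 2 single arrays, grey bands hold the middle 95% of all genes past the level filter, and dotted lines mark 2-fold. All points but that of cbs-1 lie inside the narrow band for bio-electrospray (−0.38 to 0.33), and metr-1 and mthf-1 lie past the dotted line in both heat shock panels, inside a band of −1.97 to 1.81 for heat shock minus control.

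The enzymes around the cycle were read from 7 lists of 64 genes, 60 of them with a probe set of their own and 52 past the filter. After bio-electrospray 1 of the 52 was at least 2-fold apart, the desaturase gene fat-7 (−1.34). After heat shock 6 were at least 2-fold higher and 8 lower, 26.9% in all, beside 17.1% of all genes tested. The lists were chosen with earlier results of these data known, so this comparison of shares is not independent of the data. Among the genes 2-fold apart, the probe sets of anmt-3, folt-2, mmaa-1 and fat-6 have names that mark them as possibly shared between transcripts.

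The list nearest to cbs-1 held the other genes of transsulfuration and cysteine metabolism. The cystathionine gamma-lyase gene cth-1, whose product follows CBS-1 on the way to cysteine, had levels of 6.62 in sprayed larvae and 3.82 in heat-shocked larvae, against 7.37 in untreated larvae. As with cbs-1, the control array was the high one and the heat shock array the low one. The difference from control was −0.76 after bio-electrospray, where 15 of 8613 genes were lower by at least as much, and −3.55 after heat shock (11.7-fold lower). Its paralog cth-2 differed from control by −0.02 after bio-electrospray and by 0.55 after heat shock. Of 7 list genes past the filter, cth-1 was the 1 at least 2-fold lower after heat shock, and none was 2-fold higher. The cysteine synthase-like gene cysl-1 was at −0.85 on its brighter probe set and −1.13 on the dimmer one, and cysl-2 was at −0.84. The list's median was −0.41 after heat shock and −0.09 after bio-electrospray.

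Around mel-32 and mthf-1, 4 of 11 folate genes past the filter were at least 2-fold lower after heat shock and 1 was higher, around a median of −0.47 (−0.02 after bio-electrospray). The lower ones were atic-1 (−2.30, second probe set −1.25), an enzyme gene of purine synthesis that uses a folate one-carbon unit, the folate transporter family gene folt-2 (−1.94), and the glycine cleavage genes gcsh-1 (−1.69) and gldc-1 (−1.46). The higher one was alh-3 (1.35), which encodes a formyltetrahydrofolate dehydrogenase. The transporter gene folt-2 had levels of 8.04 in sprayed larvae and 5.48 in heat-shocked larvae, against 7.42 in untreated larvae, so the treated arrays lay on opposite sides of control. No folate gene was 2-fold apart after bio-electrospray, where folt-2 had the largest difference, 0.63.

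Of 8 genes for vitamin B12 handling and the methylmalonyl-CoA route, which holds the other B12-dependent enzyme, mmaa-1 alone was at least 2-fold apart after heat shock. It encodes a protein that helps load the cofactor onto methylmalonyl-CoA mutase, and it stood at 6.00 in sprayed larvae and 7.42 in heat-shocked larvae, against 5.72 in untreated larvae. The transporter gene mrp-5, known in worms for moving B12 and heme out of the intestine, was at 0.59 after heat shock and 0.16 after bio-electrospray. Its dimmer probe set was at 0.82 and 0.24. On their brighter probe sets the propionyl-CoA carboxylase genes pcca-1 and pccb-1 were both at −0.52 after heat shock, and on their dimmer ones at −0.60 and −0.20. The gene cblc-1 was listed at the same level, 5.97, on all 3 arrays by its brighter probe set. Its dimmer probe set stood at 3.19 in sprayed larvae and 3.86 in heat-shocked larvae, against 3.19 in untreated larvae.

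Among other genes that make or use SAM, the SAM synthetase gene sams-4 stood at 7.56 on all 3 arrays by its brighter probe set and differed from control by 0.12 after bio-electrospray and 0.20 after heat shock by the other. The probe set shared by sams-2 and sams-3 differed from control by 0.06 after bio-electrospray and 0.27 after heat shock. The adenosine kinase gene adk-1, whose product removes the adenosine that AHCY-1 releases, was at 0.10 after bio-electrospray and 0.20 after heat shock. Of 5 list genes past the filter the methyltransferase gene anmt-3 was the 1 at least 2-fold apart after heat shock (1.90), with levels of 5.81 in sprayed larvae and 7.64 in heat-shocked larvae, against 5.74 in untreated larvae. Its relative anmt-2 was at −0.93.

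Choline kinases of the Kennedy pathway make phosphocholine in parallel to PMT-1 and PMT-2, and later steps of that pathway turn phosphocholine into phosphatidylcholine. The list also holds other phospholipid head group genes. Of 13 genes past the filter 2 were at least 2-fold lower after heat shock and none higher, with a median of −0.12 (0 after bio-electrospray). These were the choline kinase family gene ckb-2 (−1.71), at 7.81 in sprayed larvae and 6.19 in heat-shocked larvae, against 7.90 in untreated larvae, and the phosphatidylserine synthase gene pssy-2 (−1.42), whose heat shock level of 2.61 lay below the array median. The gene pcyt-1, for the step from phosphocholine to CDP-choline, was at 0.07 after heat shock and −0.20 after bio-electrospray. Its dimmer probe set was at 0 and −0.08. After bio-electrospray the largest difference in the list was that of ckb-4 (0.36).

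Among regulators tied to these enzymes, lpin-1 and nhr-114 were at least 2-fold higher after heat shock, of 6 past the filter. The lipin gene lpin-1, a phosphatidate phosphatase of lipid synthesis, was at 1.64 on its brightest probe set and at 1.496 and 1.486 on the others. The nuclear hormone receptor gene nhr-114, known for the response of methionine cycle genes to low B12, stood at 4.21 in sprayed larvae and 5.02 in heat-shocked larvae, against 3.94 in untreated larvae (a difference from control of 0.27 for bio-electrospray and 1.09 for heat shock). The receptor gene nhr-68, of the propionate response to low B12, was at 0.46 after bio-electrospray and 0.94 after heat shock. For nhr-114 and nhr-68 the heat shock array was highest and the control array lowest. Their relative nhr-10 was at 0.01 after bio-electrospray and −0.07 after heat shock, and at 0.18 and 0 on its dimmer probe set. The lipid regulator gene sbp-1 was at 0.51 after bio-electrospray, where 95 of 8613 genes were higher by at least as much, and at 0.16 after heat shock. The Mediator subunit gene mdt-15, a coactivator partner of SBP-1, went the other way after bio-electrospray (−0.40, with 193 genes lower by at least as much) and was at 0.07 after heat shock. Of the desaturase genes downstream of SBP-1, fat-6 was at −0.39 after bio-electrospray and 1.16 after heat shock, and fat-7 was at −1.34 after bio-electrospray and −1.76 after heat shock. The levels of fat-7, 3.16 in sprayed larvae and 2.74 in heat-shocked larvae, against 4.50 in untreated larvae, lay near or below the array median in both treated groups.

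**Figure D3:**
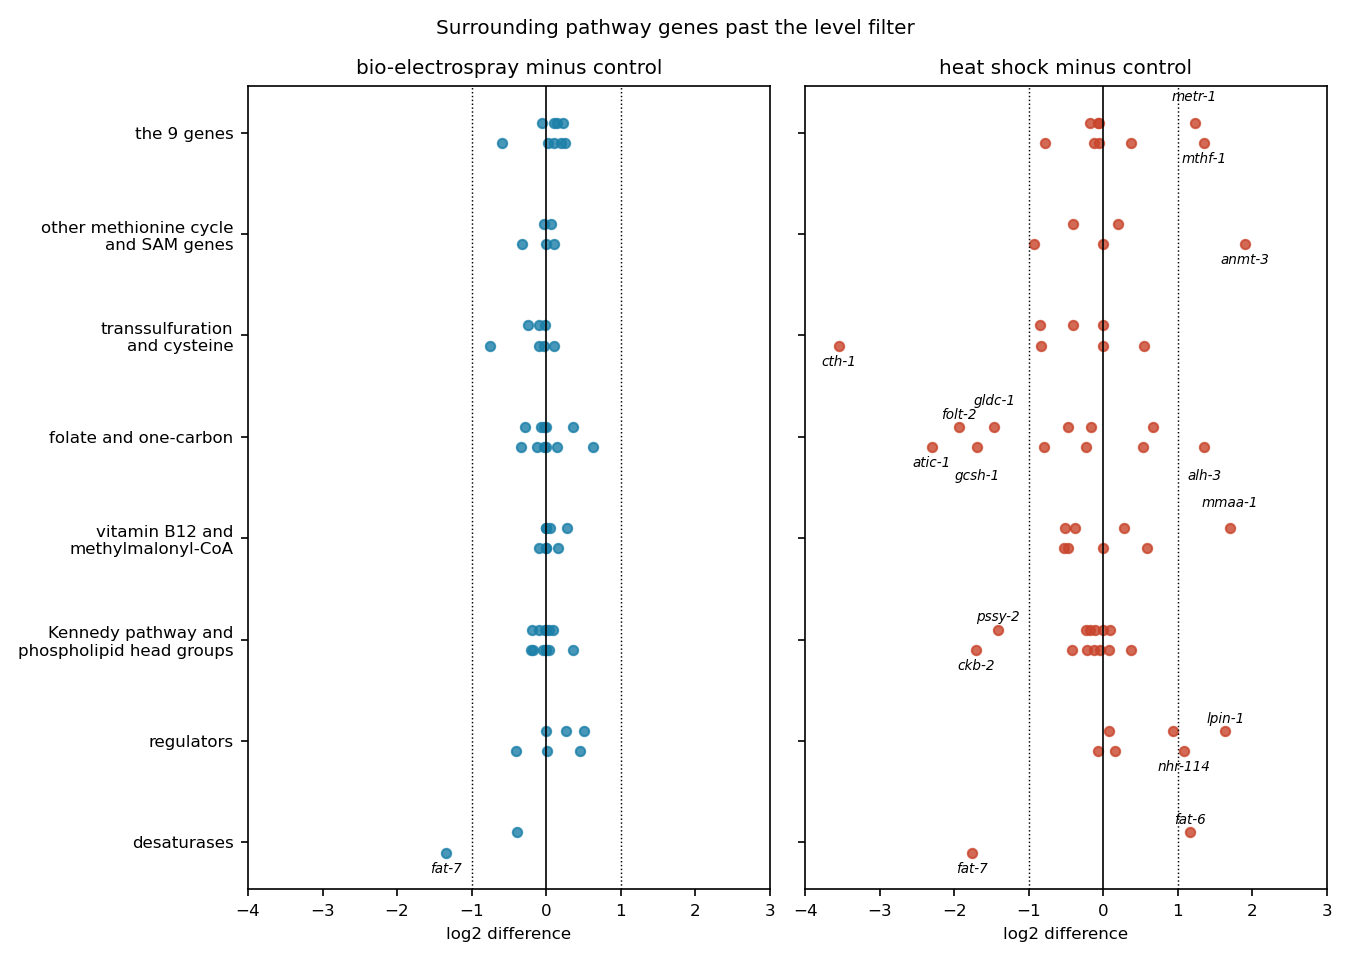
Log2 difference from control (horizontal axis) after bio-electrospray (left) and heat shock (right) for the 9 genes and 7 lists of surrounding genes (rows), 1 point per gene past the level filter; points are offset vertically for legibility only, dotted lines mark 2-fold and genes past them are named. After bio-electrospray fat-7 alone lies past a dotted line, while after heat shock metr-1, mthf-1 and 6 list genes lie past the right one and 8 list genes past the left one.

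Tissue markers differed on the heat shock array, and in both directions. The germline genes pgl-1 (−1.39) and gld-1 (−2.34) were lower, and a second gld-1 probe set (−0.02) was below the median on all 3 arrays. The germline gene glh-1 was at −0.61 on its brightest probe set and 0 on the other (7.69 on all 3 arrays). The neuronal genes rab-3, snt-1 and unc-119 were at 0.78, 0.58 and 0.95, and the second probe sets of rab-3 and snt-1 were at 1.22 and 1.05. In the intestine, where much of this metabolism takes place, ges-1 was 2-fold lower or more (−1.38), while elt-2 (−0.13), vha-6 (−0.12) and act-5 (0) were near control. Hypodermal markers went both ways, with lin-26 at 1.03 (second probe set 1.13), elt-3 at 0.55 (second probe set 1.06) and dpy-7 at −0.91. On their brightest probe sets the body wall muscle genes myo-3, unc-15 and unc-54 lay between −0.16 and 0.47, and the pharyngeal genes myo-2 and pha-4 at −0.18 and 0.57. Further unc-15 probe sets were at −0.49 and −0.30. Of the sperm genes msp-3 was lower (−1.78), at a heat shock level of 2.95 below the array median, and spe-11 and fer-1 were below the median on all 3 arrays. After bio-electrospray none of these markers was 2-fold apart. The germline genes stood above the median on every array, on their brightest probe sets, with gld-1 at 6.73 in untreated larvae, and whether all larvae were at the labelled L1 stage was not tested. The adult yolk genes vit-2, vit-5 and vit-6 were below the median on all 3 arrays. In whole animals fewer cells of a type and less RNA per cell cannot be told apart, and the part of these marker differences in the results for the 9 genes was not tested.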

How the data were processed

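Per the labels' protocols, total RNA was amplified with a biotin label and read on 1 Affymetrix C. elegans array per group. The deposited values are GCRMA levels on a log2 scale (method per the submitters' processing notes, with a version not given in the sources used here; the scale was taken from the range of values). Names came from the platform annotation, where 20766 probe sets have 1 symbol, 887 several and 972 none. All 9 members matched the RefSeq gene table. The brightest single-symbol probe set over the 3 arrays stood for a gene. Log2 levels were subtracted, and genes at least 2-fold apart were counted if the probe set exceeded the array median (percentile 50) on either array compared. No test was run. The counting step was tested on simulated data with planted changes in bright genes, larger than the 2-fold limit. It does not check calls near that limit. The members and the gene lists were chosen with earlier results of these data known. From the lists, the genes at least 2-fold apart and those with the largest differences were named, plus some chosen for their role after their values were seen; tissue markers were listed in full where described. The list entries gnmt-1, dhfr-1 and chpt-1 were not analysed here. Alternatives covered quantile normalization, median centring, loess centring (span 0.3), an offset of 16 on the linear scale, the mean over probe sets, unshared probe sets, no level filter, the 75th percentile, both arrays above the median, and fold thresholds of 1.5 and 3. The comparison with genes at least as bright as cbs-1 was added after the data were seen. The number of arrays limits the precision. No sequences are shown. Python 3.11.15, numpy 2.4.6, pandas 2.3.3, statsmodels 0.14.6 and matplotlib 3.10.9 were used.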

Additional observations from a re-analysis of the deposited data

How the results depend on the processing

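Over 9 alternatives, 233 of 234 member differences stayed within the spread of a single probe set (SD 0.12 for bio-electrospray minus control, 0.31 for heat shock minus control and 0.30 for heat shock minus bio-electrospray); the exception was cbs-1 after bio-electrospray, −0.45 with the offset of 16. The median over the members ran from 0.10 to 0.18, from −0.10 to 0.04 and from −0.23 to −0.10 in these comparisons. The value of 0.18 came from leaving out probe sets possibly shared between transcripts, and with them mthf-1, mel-32 and pmt-1. The agreement of the member differences was in large part fixed in advance. Changes of the level filter returned the same member values, and the mean over probe sets could move sams-1 alone. Leaving out possibly shared probe sets left the differences of the kept genes as they were. Only quantile normalization, median centring, loess centring and the offset could move every member. Both metr-1 (1.09 to 1.24) and mthf-1 (1.28 to 1.37) stayed at least 2-fold higher for heat shock minus control in every alternative that kept their probe set. Without probe sets possibly shared between transcripts, mthf-1, mel-32 and pmt-1 drop out. Then 1 member is counted for heat shock against control and 1 against bio-electrospray. Quantile normalization, median centring and the offset each left 1 member 2-fold apart for heat shock minus bio-electrospray. Small differences changed sign for sams-1 with the mean over probe sets (−0.0062 for bio-electrospray minus control) and with quantile normalization (0.04 for heat shock minus control, 0.02 for heat shock minus bio-electrospray), and for pmt-2 with quantile normalization (0.06 for heat shock minus control). With a 1.5-fold threshold, 1 member (cbs-1) was apart after bio-electrospray; with a 3-fold threshold, 0 members were apart after heat shock against either other array. Over all genes, the counts at least 2-fold apart of 26, 1544 and 1492 were 11, 802 and 750 with the offset, 120, 2945 and 2915 at 1.5-fold, and 7, 684 and 634 at 3-fold, and the first was 17 with the filter at the 75th percentile. No paired analysis was possible because each group is 1 array. Gains or losses between cultures cannot be seen with 1 array per group.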

Other observations

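The gene next to metr-1 in the RefSeq gene order went the other way after heat shock. R03D7.2 differed from control by −1.93 after heat shock and by 0.12 after bio-electrospray, while metr-1 was at 1.23 and 0.23. Of the 14 direct neighbours of the 9 genes with a probe set of their own, 11 passed the level filter. Among these 11, R03D7.2 was the 1 at least 2-fold apart after heat shock, and 4 had exactly the control level. Of all 9010 genes tested, 17.1% were at least 2-fold apart and 1315 had exactly the control level. The neighbours of mthf-1 were both at 0, C06A8.6 below the filter and snpc-1.1 above it. Neighbours were looked up after the values of the 9 genes had been seen.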
